A study of Drosophila melanogaster with 12 samples.

Results

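Hsc70-4, Chchd2 and muc are 3 genes of the fruit fly Drosophila melanogaster, described here over 12 microarrays of heads from adult flies without a working circadian clock. They were selected on their measured profiles in these same arrays, because their signals fell together on 4 of them. The rule took every probe set (a group of short probes summarised as 1 value) whose single annotated gene symbol was Hsc70-4, Chchd2 or muc, which gave 1 probe set for each gene and 3 of the 10844 genes on the array with a probe set of their own. The flies were y w; tim01. The tim01 mutation removes functional TIM, a partner of PER in the clock, and all 12 arrays carry it, so no array shows these genes with an intact clock. The flies were kept in darkness throughout and had been entrained to a temperature cycle before sampling. On the CA day (cold/ambient) they lived through 12 h at 18 °C and then 12 h at 25 °C, and on the AA day (ambient/ambient) that followed they stayed at 25 °C. One array was made every 4 h, at 2, 6, 10, 14, 18 and 22 h of each day, and AA14 stands for the array at 14 h of the AA day. The CA warm phase holds CA14, CA18 and CA22 at 25 °C, the CA cold phase holds CA2, CA6 and CA10 at 18 °C, the AA subjective warm phase holds AA14, AA18 and AA22, and the AA subjective cold phase holds AA2, AA6 and AA10, with both AA groups at 25 °C.

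Hsc70-4 is the main constitutive Hsp70 chaperone of the fly cytosol. With J-domain partners it folds and refolds proteins, and with auxilin it strips the clathrin coat from vesicles, a step that synapses depend on. Chchd2 is a small protein with twin cysteine motifs that resides largely between the mitochondrial membranes and helps to maintain cristae and respiration. Mutations of its human counterpart cause a form of Parkinson disease. muc (midline uncoordinated) encodes the E2 subunit, dihydrolipoamide acetyltransferase, of the pyruvate dehydrogenase complex, which feeds pyruvate carbon into the tricarboxylic acid cycle as acetyl-CoA.

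Every value is a log2 signal on which the authors had already run RMA, a procedure that gives all arrays nearly the same distribution, so a change common to most transcripts cannot be seen in it. The 12 arrays correlated with one another at 0.980 or above over 13966 probe sets, and their medians lay between 5.18 and 5.22. Each time is a single array of pooled heads, and nothing says whether the arrays came from separate cultures, so their number limits the precision of every value. Head markers were present: the photoreceptor arrestins Arr1 and Arr2 read 11.10 to 11.83 and 11.96 to 12.18 over the arrays, and the yolk protein Yp1, which the head fat body makes, read 13.74 to 13.95. The neuronal gene elav read 5.18 to 6.46 and the glial gene repo 5.19 to 6.15. In whole heads, fewer cells that express a gene and less RNA per cell cannot be told apart.

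Hsc70-4 read 10.60, 10.51 and 10.48 at 2, 6 and 10 h of the CA day and 10.66, 9.88 and 10.63 at 14, 18 and 22 h. On the AA day it read 10.37, 10.18 and 10.67 at 2, 6 and 10 h and 9.65, 9.23 and 9.23 at 14, 18 and 22 h. The chaperone transcript was thus steady over the thermocycle day apart from a dip at CA18, and low on all arrays of the AA subjective warm phase. On the linear scale the signal was 62.4% of the median of the 8 other arrays on CA18, 53.4% on AA14, 39.9% on AA18 and 39.8% on AA22.

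Chchd2 read 9.95, 10.12 and 9.79 at 2, 6 and 10 h of the CA day and 9.93, 9.16 and 10.03 at 14, 18 and 22 h. On the AA day it read 9.88, 9.47 and 10.18 at 2, 6 and 10 h and 8.90, 8.40 and 8.34 at 14, 18 and 22 h. The same 4 arrays were the low ones, although AA6 lay below the other 7. As shares of the median of those 8 arrays, Chchd2 stood at 58.1% on CA18, 48.4% on AA14, 34.4% on AA18 and 33.0% on AA22.

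muc read 10.26, 10.37 and 10.23 at 2, 6 and 10 h of the CA day and 10.02, 9.35 and 10.27 at 14, 18 and 22 h. On the AA day it read 10.16, 9.78 and 10.49 at 2, 6 and 10 h and 9.32, 8.63 and 8.76 at 14, 18 and 22 h. Here AA14 and CA18 lay close together, and AA18 rather than AA22 was the lowest. The shares of the median of the 8 other arrays were 53.6% on CA18, 52.7% on AA14, 32.6% on AA18 and 35.7% on AA22. AA10 was the highest of the 12 arrays and AA6 the lowest of the 8 others for all 3 genes.

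**Figure D1:**
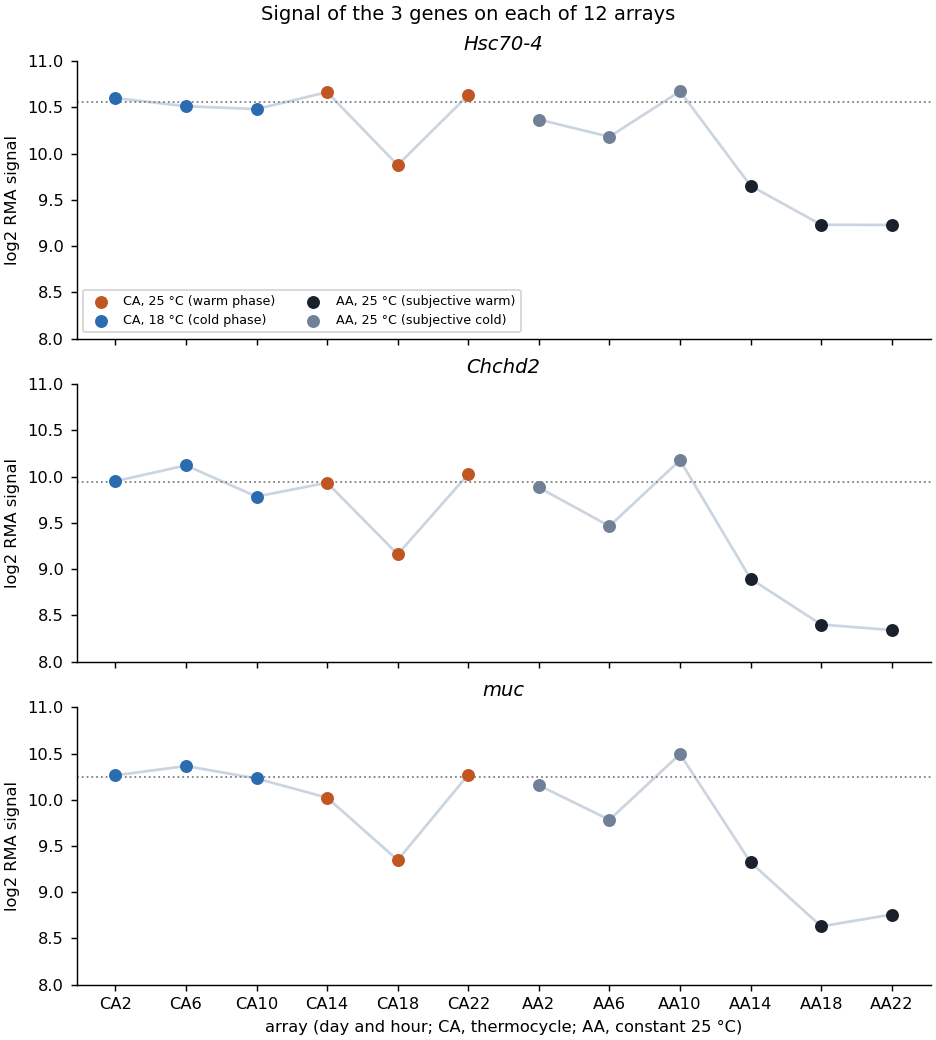
Log2 RMA signal (y axis) of Hsc70-4, Chchd2 and muc on each of the 12 arrays (x axis, hours of the CA day and then of the AA day), 1 point per array and no error bars, with the dotted line at the median of the 8 arrays other than CA18, AA14, AA18 and AA22. All 3 genes dip at CA18, peak at AA10 and are lowest at AA18 and AA22.

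The 4 arrays AA14, AA18, AA22 and CA18 had a median Hsc70-4 signal of 9.44, against 10.56 on the 8 others. Their ranges did not overlap: 9.23 to 9.88 on the 4 arrays and 10.18 to 10.67 on the 8 others, with 0.31 between them. For Chchd2 the medians were 8.65 on the 4 arrays and 9.94 on the 8 others, a fall of 59.2% on the linear scale, and 0.30 separated the ranges. For muc they were 9.04 on the 4 arrays and 10.25 on the 8 others, a fall of 56.7%, and 0.44 separated the ranges. The fall of Hsc70-4 was 53.8%. These 4 arrays were singled out by the values, so the drop carries no test. Over all probe sets the same difference of medians was centred at 0.03. Of the 13966 probe sets, 107 (0.766%) had the 4 arrays below all 8 others and 58 (0.415%) had them above all 8 others. Ordered by the difference of medians, Chchd2 came 1st, muc 3rd and Hsc70-4 5th of the 13966, and 5 probe sets in all had a difference below -1. The 2nd was Rm62, a DEAD-box RNA helicase, at -1.23, and the 4th was CNBP, a zinc-finger nucleic acid binding protein, at -1.20. CNBP differed from the others in that its highest value on the 4 arrays, 9.63, exceeded its lowest on the 8 others, 9.49.

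The 3 transcripts took the same steps along the AA day. Between AA6 and AA10 Hsc70-4 was up by 0.49, Chchd2 by 0.71 and muc by 0.71. Between AA10 and AA14 the changes were -1.02 for Hsc70-4, -1.28 for Chchd2 and -1.17 for muc, the largest step of that day for each. Between AA14 and AA18 they were -0.42, -0.49 and -0.69 in the same order, and between AA18 and AA22 none of the 3 moved by more than 0.13. On the CA day the low value lasted for a single array. CA18 lay 0.77 below the mean of CA14 and CA22 for Hsc70-4, 0.82 below it for Chchd2 and 0.80 below it for muc.

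The signals of the 3 genes tracked each other closely over the 12 arrays. Pearson's r was 0.988 for Hsc70-4 and Chchd2, 0.975 for Hsc70-4 and muc, and 0.988 for Chchd2 and muc, and Spearman's rho was 0.930, 0.867 and 0.965 for the same pairs. The genes were chosen for this relation and share every array, so r is given without a p-value. Without AA18 and AA22, the 2 arrays farthest from the median, r was 0.966, 0.928 and 0.969. Over the 8 arrays outside the drop, where Hsc70-4 spans 0.49 and each of the others 0.71, it was 0.828, 0.688 and 0.897. Outside the drop, the mitochondrial genes Chchd2 and muc thus had the highest r of the 3 pairs and Hsc70-4 and muc the lowest. The difference between the signals of Chchd2 and muc had an SD of 0.10 over the arrays, compared with 0.15 for Hsc70-4 and Chchd2 and 0.16 for Hsc70-4 and muc.

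**Figure D2:**
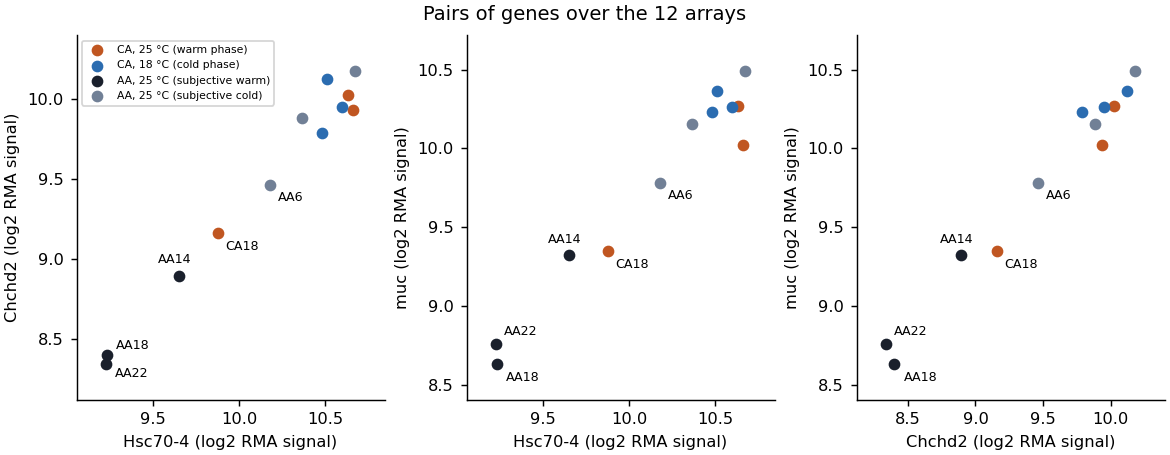
Log2 RMA signal of 1 gene against another (both axes) for the pairs Hsc70-4 and Chchd2, Hsc70-4 and muc, and Chchd2 and muc, 1 point per array, coloured by day and phase. The 4 low arrays lie apart from a cluster of the others in each panel, r over all 12 arrays is 0.988, 0.975 and 0.988, and AA6 lies between the cluster and the low arrays.

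The first contrast compares the warm and cold phases within the thermocycle day. Every cold array of that day was made at an earlier hour than every warm array. Temperature and hour of day therefore cannot be told apart in this contrast, and the effect of the temperature step alone was not tested. The CA warm phase averaged 10.39 ± 0.45 and the CA cold phase 10.53 ± 0.06 for Hsc70-4 (SD, n = 3 arrays each). For Chchd2 these means were 9.71 ± 0.48 in the CA warm phase and 9.95 ± 0.17 in the CA cold phase, and for muc 9.88 ± 0.48 in the CA warm phase and 10.29 ± 0.07 in the CA cold phase. The CA warm minus CA cold differences were -0.14 ± 0.19 for Hsc70-4, -0.25 ± 0.23 for Chchd2 and -0.41 ± 0.23 for muc (SE, limma). The spread of the warm phase came from CA18. Without that array the differences were 0.12, 0.03 and -0.14. Over the whole table limma called 1 of 13966 probe sets in this contrast at an adjusted p under 0.05 (0.00716%), and since CA18 helped to choose the genes no test of them is given.

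On the AA day the subjective warm phase averaged 9.37 ± 0.24 and the subjective cold phase 10.41 ± 0.25 for Hsc70-4 (SD, n = 3 arrays each). For Chchd2 the means were 8.55 ± 0.30 in the subjective warm phase and 9.84 ± 0.36 in the subjective cold phase, and for muc 8.90 ± 0.37 in the subjective warm phase and 10.14 ± 0.36 in the subjective cold phase. No array of the subjective warm phase reached any array of the subjective cold phase for any of the 3 genes, with both phases held at 25 °C. Of all 13966 probe sets, 521 (3.73%) had the subjective warm arrays below all subjective cold arrays. The AA subjective warm minus AA subjective cold differences were -1.04 ± 0.19, -1.30 ± 0.23 and -1.24 ± 0.23 (SE, limma) for Hsc70-4, Chchd2 and muc. This contrast is the one the genes were chosen by, so they are described and not tested. In it limma called 0 of 13966 probe sets (0.0%). Without adjustment 636 probe sets had a p under 0.05, 286 of them higher and 350 lower.

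The same clock hours could then be compared between the days. In the warm hours, the CA warm minus AA subjective warm differences were 1.02 ± 0.19 for Hsc70-4, 1.16 ± 0.23 for Chchd2 and 0.98 ± 0.23 for muc (SE, limma), and all 3 genes were higher on the CA day at each of the 3 hours. The gap was widest at 22 h, where Hsc70-4 read 10.63 on CA22 and 9.23 on AA22, Chchd2 10.03 on CA22 and 8.34 on AA22, and muc 10.27 on CA22 and 8.76 on AA22. This comparison also contains the low arrays and carries no test of the genes. Over all probe sets limma called 2 of 13966 (0.0143%).

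The cold hours hold none of the 4 low arrays, but their 6 arrays are among the 8 against which the drop was seen, so here too the genes are described and not tested. The CA cold minus AA subjective cold differences were 0.12 ± 0.19 for Hsc70-4, 0.11 ± 0.23 for Chchd2 and 0.14 ± 0.23 for muc (SE, limma), each smaller than its error. The 3 genes were higher on the CA day at 2 h and 6 h and lower on the CA day at 10 h, so the direction was not shared by the hours. The CA cold arrays were made at 18 °C and the AA arrays at 25 °C a day later, and temperature and day cannot be told apart. The contrast had 0 calls among the 13966 probe sets (0.0%), and without adjustment limma gave 494 a p under 0.05, 228 of them higher and 266 lower.

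For the daily shape, the 6 arrays of a day were decomposed into Fourier components, and the part of their variance at the 24-h component was taken as a share of the total. On the AA day this share was 0.813 for Hsc70-4, 0.751 for Chchd2 and 0.771 for muc, with the fitted peaks at 7.15, 7.10 and 7.19 h, in the subjective cold phase. The median over all probe sets was 0.404, and 8.16%, 12.7% and 11.1% of all probe sets had a share at least as high. On the CA day the shares were 0.218, 0.429 and 0.611 for the 3 genes, beside a median of 0.389 over all probe sets. No p-value is attached, because the genes were chosen for this profile.

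Other probe sets of the same genes give little to compare. Each of the 3 genes had 1 probe set of its own. A further pair of probe sets carried both Hsc70-4 and Acbp3, an acyl-CoA binding protein, and therefore were not members. They read 5.05 to 5.37 and 5.12 to 5.41 over the 12 arrays, and did not follow Hsc70-4 (r = -0.18 and 0.18). Their difference of medians between the 4 arrays and the 8 others was 0.07 for one and -0.04 for the other. Which of the 2 transcripts these probe sets measure cannot be read from the annotation. Whether the drop would be seen with a second probe set for any of the 3 genes was not tested.

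The genes most like the 3 were ranked by Pearson's r with their mean centred profile over the 12 arrays. Over all 13966 probe sets r had a median of -0.12 and lay between -0.59 and 0.57 for the middle of the distribution (5th to 95th percentile). It exceeded 0.9 for 42 probe sets, the 3 genes included. At the top stood snRNP-U1-70K, a protein of the U1 spliceosomal particle that recognises 5′ splice sites (r = 0.981). It read 6.44 on AA14, 6.07 on AA18, 6.16 on AA22 and 6.54 on CA18, against 6.64 to 7.08 on the 8 other arrays. Trc8, a ubiquitin ligase of the endoplasmic reticulum, followed with r = 0.965, and it read 6.01, 5.69, 5.65 and 5.87 on AA14, AA18, AA22 and CA18, against 6.38 to 6.92 on the 8 others. Ref1, an adaptor for mRNA export, had r = 0.957 and read 7.45, 7.14, 7.06 and 7.15 on those 4 arrays, against 7.77 to 8.35 on the 8 others. For all 3 of these genes the ranges did not overlap. Hasp had r = 0.953, Rm62 0.943, CG1910 0.945, CG30089 0.942 and CG14186 0.941, also without overlap. Ranking by r with a profile that is low on the 4 arrays favours such separation, which 107 of all 13966 probe sets (0.766%) showed. CG32809 (r = 0.953) and CycY, a cyclin (r = 0.948), completed the 10, and in both a value on the 4 arrays reached into the range of the 8 others.

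**Figure D3:**
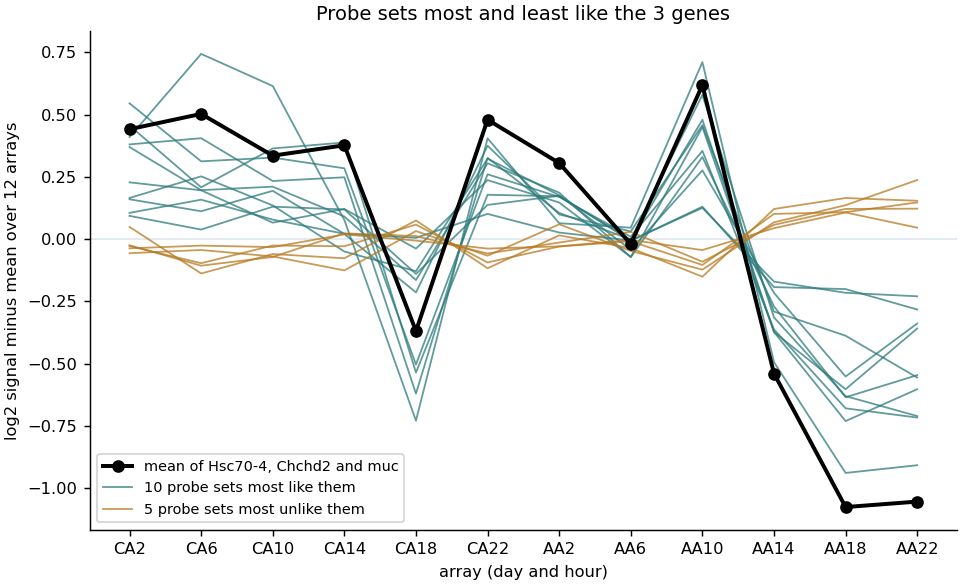
Deviation of the log2 RMA signal from its own mean over the arrays (y axis) on the 12 arrays (x axis, hours of the CA and AA days), for the mean of Hsc70-4, Chchd2 and muc (black, with points), the 10 probe sets with the highest r with it (green lines) and the 5 with the lowest (brown lines). The mean of the 3 genes is -0.37 on CA18, -0.54 on AA14, -1.08 on AA18 and -1.05 on AA22, the green lines are low on the same AA arrays, and the brown lines move the other way over a far smaller range.

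The ranking depended on the measure. Spearman's rho in place of r kept 1 of the 10 names. Several of the genes also had other probe sets with another profile. A second probe set of Hasp had r = -0.46 and one of CG1910 r = -0.57, both nearly flat, with a difference of medians of 0.05 and 0.04. The other probe sets of CG30089 had r = 0.90 and 0.61, and those of CG32809 0.77 and 0.59. At the opposite end stood FoxP, a forkhead transcription factor (r = -0.958), which read 4.51, 4.52, 4.56 and 4.47 on AA14, AA18, AA22 and CA18, against 4.31 to 4.40 on the 8 others. Gmer, an enzyme of GDP-fucose synthesis (r = -0.908), alpha-Est5, an esterase (r = -0.888), Fign, a microtubule-severing ATPase (r = -0.887), and l(2)34Fc (r = -0.883) came next. None of these 5 varied by much, with an SD over the arrays between 0.05 and 0.11, whereas that of Hsc70-4 was 0.55, of Chchd2 0.66 and of muc 0.64.

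Beyond the 3 genes, the 107 probe sets with all 4 arrays below the 8 others had a median difference of -0.43 and carried 80 named genes. The genes named next were picked after their values were seen. The widest space between the ranges was that of Rm62, 0.54, followed by muc, 0.44. RpLP2, an acidic protein of the ribosomal stalk, had 0.39 and a difference of medians of -0.85, and ATPsynB, a stator subunit of the mitochondrial ATP synthase, had 0.38 and -0.80. CG5504, the fly tumorous imaginal discs gene and a mitochondrial J-domain partner of Hsp70 proteins, had 0.29 and -0.82. SmD3, a core spliceosomal protein, had 0.25 and -0.84. The clock gene per was also in the set, with 0.21 between the ranges and a difference of -0.77 in these flies without TIM. For 25 of the 80 genes there was more than 1 probe set, and in 2 of them, CG32772 and OtopLa, every probe set met the condition. The 35 other probe sets of such genes that did not meet it had a median difference of -0.08 and a median r of 0.408 with the profile of the 3 genes, and 26 of them had a negative difference. The probe sets that met the condition had a median r of 0.866, which the condition itself makes high.

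The listed relatives and partners of the 3 genes did not share the fall as groups. The lists below were drawn up with earlier results of these arrays known and are described by counts. In the AA subjective warm minus AA subjective cold contrast, 4 of the 8 other Hsp70 family genes measured were lower and 4 higher. Their median was 0.00, beside a median of 0.02 over all probe sets. As a background for the counts of every list, 4398 of all 10844 genes, 1 probe set each, were lower in this contrast and 6439 higher. Hsc70-3, the chaperone of the endoplasmic reticulum, differed by -0.09 ± 0.12, Hsc70-5, the mitochondrial one, by 0.11 ± 0.14, and the stress-inducible Hsp68 by -0.14 ± 0.09 (SE, limma). On CA18, where Hsc70-4 dipped, Hsp68 had its highest value of the 12 arrays, 5.28, and so did Hsc70-3, 8.68. As limma called 0 of 13966 probe sets in this contrast (0.0%), its calls cannot tell these lists from other genes.

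Among 18 measured partners of Hsc70 chaperones, 7 were lower and 11 higher in the same contrast, with a median of 0.01. The exception in size was jdp, a J-domain protein (r = 0.822 with the profile of the 3 genes). It read 7.23, 6.72 and 6.66 in the AA subjective warm phase, against 7.66, 7.38 and 8.60 in the AA subjective cold phase, a difference of -1.01 ± 0.34. On CA18 jdp read 7.70, which was 0.55 below the mean of CA14 and CA22 but inside the range of the 8 arrays outside the drop. Over all probe sets the median of CA18 minus the mean of CA14 and CA22 was 0.04. Sgt, a TPR co-chaperone, had r = 0.699 and a difference of -0.31 ± 0.21, and stv, a BAG-domain co-chaperone, r = 0.513 and -0.15 ± 0.10. On CA18 Sgt read 6.36, below its lowest value on the 8 arrays outside the drop, 6.42. CG1416, of the Aha1 type that activates Hsp90, ran the other way with r = -0.490 and a difference of 0.24 ± 0.19. Of 11 other clathrin-coat and uncoating genes, 4 were lower and 7 higher, with a median of 0.05. Synj, the phosphatase that acts with Hsc70 in uncoating, had the highest r among them, 0.751, and differed by -0.34 ± 0.16. Clathrin heavy chain, Chc, differed by 0.05 ± 0.11.

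Around muc, 7 of 9 other measured genes of pyruvate dehydrogenase, its relatives and lipoylation were lower and 2 higher on the AA subjective warm arrays, with a median of -0.03. CG5214, the E2 subunit of the oxoglutarate dehydrogenase complex and so the counterpart of muc in the tricarboxylic acid cycle, had the highest r, 0.680. It read 8.25, 8.10 and 8.05 in the AA subjective warm phase, against 8.16, 8.42 and 9.14 in the AA subjective cold phase, so these groups overlapped. On CA18 it read 7.80, its lowest value of the 12 arrays, 0.97 below the mean of CA14 and CA22. Mpc1 of the same list, named for its CA18 value, read 8.35 there, also its lowest of the 12 arrays. Between the AA phases Mpc1 differed by 0.06 ± 0.14. CG7430, named for its role as the E3 subunit that both complexes share, differed by -0.03, the lipoic acid synthase Las by -0.12, and the phosphatase Pdp by 0.10. The E1 genes of the complex were not among the genes with a probe set of their own here. Of 12 measured genes of the tricarboxylic acid cycle, 5 were lower and 7 higher, with a median of 0.00.

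Around Chchd2, 3 of 14 other genes of the CHCHD family, the MICOS complex of the cristae and complex IV were lower and 11 higher, with a median of 0.05. COX5A, a subunit of complex IV, had the highest r, 0.626, and differed by -0.22 ± 0.13. Chchd3, a MICOS subunit of the same protein family, had r = -0.302 and differed by 0.14 ± 0.13. No gene of these lists other than the 3 had the 4 arrays below all 8 others. CG5504, the J-domain partner named above, did have them so, with a difference of medians of -0.82, but was not among the partners counted.

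**Figure D4:**
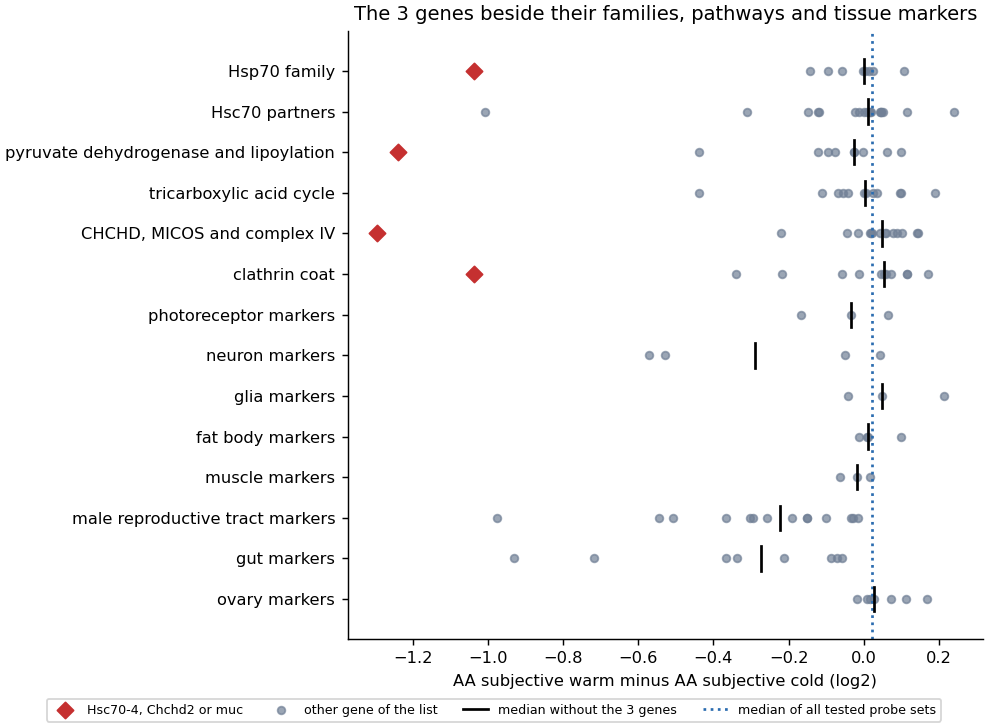
AA subjective warm minus AA subjective cold difference in log2 RMA signal (x axis) of each measured gene in 14 lists (rows), 1 point per gene, with a bar at the list's median without the 3 genes, red diamonds for Hsc70-4, Chchd2 and muc, and a dotted line at the median of all probe sets, 0.02. Hsc70-4, Chchd2 and muc lie between -1.30 and -1.04, and of the other genes jdp, at -1.01, comes nearest.

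Markers of head tissues are given for comparison in the same contrast, in which 4398 of 10844 genes were lower and 6439 higher. Of 5 neuronal markers 4 were measured, and 3 were lower and 1 higher in the AA subjective warm phase, with a median of -0.29. Their summed log2 signal ran between 23.99 and 24.96 there and between 24.47 and 26.60 in the AA subjective cold phase. elav, an RNA-binding protein of neurons, had r = 0.832 and read 5.63, 5.18 and 5.18 in the AA subjective warm phase, against 5.56, 5.69 and 6.46 in the AA subjective cold phase. On CA18 elav read 5.43, below its lowest value on the 8 arrays outside the drop, 5.56, and only AA14 of the 4 arrays reached into their range. nSyb, a synaptic vesicle SNARE, read 6.45, 6.04 and 6.09 in the AA subjective warm phase, against 6.97, 6.10 and 7.09 in the AA subjective cold phase, but it read 7.19 on CA18. brp, a component of the active zone, differed by -0.05 ± 0.10. Csp, named as the 1 neuronal marker that was higher, differed by 0.04 ± 0.11 (r = -0.003). The part of neuronal RNA in the drop was not tested.

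Markers of other body parts also differed between the AA phases. All 14 measured male reproductive tract genes of 15 were lower in the AA subjective warm phase, with a median of -0.22 and a summed signal of 50.22 to 50.86, against 49.18 to 60.10 in the AA subjective cold phase. All 8 gut genes were lower as well, with a median of -0.27 and a summed signal of 40.06 to 40.67, against 39.74 to 45.35 in the AA subjective cold phase. Within the AA day the sums were high on AA6 and AA2, and on AA10, where the 3 genes were highest, both were at their lowest of the 12 arrays. These genes had r between -0.19 and 0.26 with the profile of the 3 genes for the male tract and between -0.06 and 0.31 for the gut. Of the male tract genes, 6 were below the mean of the unspiked control probe sets on all 12 arrays, and so was 1 gut gene. Of the remaining lists, 1 of 7 ovary, 1 of 3 glial, 1 of 4 fat body, 2 of 3 muscle and 2 of 3 photoreceptor genes were lower, and the medians lay between -0.04 and 0.05.

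Control probe sets give the state of each array beside the drop. The spike-in controls, RNAs added in known amounts during labelling or hybridisation, averaged 9.09 on AA14, 9.06 on AA18, 8.97 on AA22 and 7.91 on CA18, against 8.65 to 9.13 on the 8 others. CA18 was thus the lowest of all 12 arrays in its spike-ins, and the 3 AA arrays were not low. The 3′ minus 5′ signal of the eIF-4a control, which grows as RNA is degraded, ran between 1.42 and 2.69 on the 4 arrays and between 1.56 and 2.81 on the 8 others. That of the GAPDH control ran between 2.01 and 2.52 on the 4 arrays and between 2.41 and 2.64 on the 8 others, and that of actin between 0.82 and 1.85 on the 4 arrays and between 0.87 and 1.71 on the 8 others. CA18 had the lowest of the 12 values for all 3 controls. With the profile of the 3 genes the spike-in mean correlated at r = -0.02, and the 3′ minus 5′ signals at -0.34 for eIF-4a, 0.38 for GAPDH and -0.05 for actin. The mean of the unspiked control probe sets correlated at r = -0.53. It ran between 3.38 and 3.46 on the 4 arrays and between 3.26 and 3.47 on the 8 others. Whether the background of the arrays had a part in the drop was not tested. With CA18 left out, the difference of medians of the 3 remaining low arrays was -1.33 for Hsc70-4, -1.54 for Chchd2 and -1.49 for muc. CA18 was the highest of the 4 low arrays for each gene, so these differences could not become smaller. The count of probe sets with those 3 arrays below the 8 others was 234 rather than 107, the 3 genes among them. Leaving out an array only loosens that condition, so the count could not fall and the 3 genes had to stay in it.

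**Figure D5:**
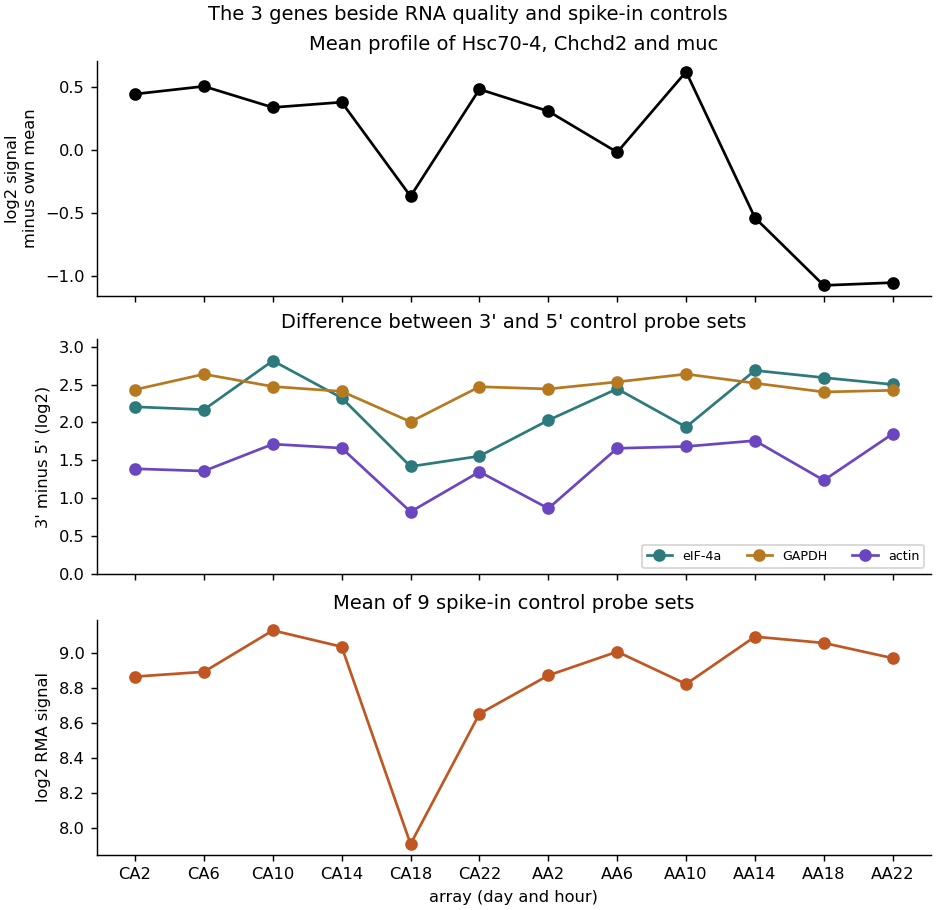
Values on the 12 arrays (x axis, hours of the CA and AA days), 1 point per array: mean deviation of Hsc70-4, Chchd2 and muc from their own means (top, log2), 3′ minus 5′ log2 signal of the eIF-4a, GAPDH and actin controls (middle), and mean log2 RMA signal of 9 spike-in probe sets (bottom, axis not starting at 0). The spike-in mean is 7.91 on CA18 and 8.65 or more on the other 11 arrays, AA14, AA18 and AA22 included.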

How the data were processed

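Total head RNA of y w; tim01 flies was hybridised to 12 Affymetrix Drosophila Genome 1 arrays. The authors deposited log2 signals made with RMA (background correction, quantile normalization and median polish, version not given in the sources used here), which were used as they stood. Of 14010 probe sets, 44 controls were set aside and 13966 tested. Of these, 12443 carried 1 gene symbol, 327 several and 1196 none. For 12394 of those with 1 symbol the gene was found in a RefSeq gene table, and its symbol there was used. Group means of 4 groups of 3 arrays were fitted with limma 3.58.1 in R 4.3.3 (8 residual and 5.28 prior degrees of freedom, two-sided, Benjamini-Hochberg over all probe sets, threshold 0.05) and checked on simulated data. The p-values measure only the spread between these arrays, which are different hours and may not be separate cultures.

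Named were the 3 genes, the 10 single-symbol probe sets with the highest and the 5 with the lowest r with their mean profile, and in each gene list up to 3 genes by r and up to 3 by the size of the AA difference. In a list the probe set with the highest mean stood for a gene. The members and lists were chosen with earlier results of these data known. Alternatives were a repeated quantile normalization, median centring, a low-signal filter (most values above the 20th percentile), array weights, each array left out, other samples, another coefficient and clock hour as a block.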

Additional observations from a re-analysis of the deposited data

How the results depend on the processing

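Of 393 alternative values, 343 stayed within the limits set for them and 50 moved. The limits let a difference change sign if it stayed within the SD of its arrays. In CA cold minus AA subjective cold, the 54 alternatives for the 3 genes could move only through an adjusted p under 0.05. The sign changes named next are thus among the 343, and the share that stayed does not measure how firm the values are. Described differences changed sign in CA warm minus CA cold for Hsc70-4 and Chchd2 without CA18 and, with array weights, for Hsc70-4, and in CA cold minus AA subjective cold for Chchd2 and muc without AA6 (-0.08 and -0.04). Leaving out 1 array at a time gave 0 to 9 calls in CA warm minus CA cold (1 with all arrays), 0 to 5 in AA subjective warm minus AA subjective cold (0, with 5 only without CA18), 0 to 1 in CA cold minus AA subjective cold (0) and 0 to 10 in CA warm minus AA subjective warm (2). Array weights gave 3, 0, 1 and 8 calls in these contrasts, and fits of the 2 groups alone gave 0 in each. A repeated quantile normalization gave 1 call in CA warm minus AA subjective warm. Residual correlations between the days at the same hour ran between -0.23 and 0.25 over all probe sets. With clock hour as a replicate block CA warm minus AA subjective warm had 0 calls and CA cold minus AA subjective cold 0. In CA warm minus AA subjective warm, fits of the 2 groups alone gave the 3 genes an SE of 0.21, 0.23 and 0.25. The block lowered these to 0.14, 0.17 and 0.16 for Hsc70-4, Chchd2 and muc. It changed the SE little in CA cold minus AA subjective cold.

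The drop, as a difference of medians, ran between -1.33 and -0.90 for Hsc70-4, -1.54 and -1.05 for Chchd2 and -1.49 and -0.92 for muc with 1 array left out, deepest without CA18 or AA14 and shallowest without AA18 or AA22. As a gap between ranges it was -0.31, -0.30 and -0.44. With 1 array left out r ran between 0.983 and 0.993 for Hsc70-4 and Chchd2, 0.964 and 0.990 for Hsc70-4 and muc, and 0.984 and 0.992 for Chchd2 and muc. The 8 other arrays alone gave 0.828 and 0.688 for the pairs with Hsc70-4, and Spearman's rho for Hsc70-4 and muc was 0.867. Of the 10 genes most like the 3, Spearman ranking kept 1, and leaving out 1 array kept 6 to 9, with 6 without CA2. The count of probe sets with the low arrays below all others was 234 without CA18 in place of 107. That alternative was chosen after seeing the data and could not lower the count. One array per time and 1 probe set per gene limit what can be said of the 3 genes.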
